A study of Drosophila melanogaster with 66 samples.

Results

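The proteasome genes described here are the Drosophila melanogaster genes whose array symbol begins with Prosalpha, Prosbeta, Rpn or Rpt followed by a digit, with older Pros names counted under the present symbol. The rule found 40 genes among the 11982 genes named by a single symbol on the array, each with 1 probe set, so that no choice between probe sets of a gene was needed. Standard subunits made up 26 of them, with 6 alpha and 6 beta subunits of the core and 7 base and 7 lid subunits of the regulatory particle. The other 14 were copies of a subunit that carry a T or an R after its number. Prosalpha1, Prosbeta1, Rpt1, Rpt6, Rpn9 and Rpn10 were not analysed here.

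The proteasome is the protease that breaks down ubiquitin-tagged proteins in the cytoplasm and nucleus. Its core is a barrel of stacked rings, in which alpha subunits form the outer rings that gate entry and beta subunits form the inner rings that hold the proteolytic sites. The regulatory particle caps the barrel, with a base of Rpt ATPases that unfold substrates and open the gate, large Rpn scaffolds and ubiquitin receptors, and a lid that removes the ubiquitin chain. Early embryos start with mRNAs and proteins loaded by the mother, and the transition to zygotic development depends on the timed breakdown of many maternal proteins.

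Whole Canton S embryos were collected at 0-2 hours, from fertilization to the syncytial blastoderm, at 4-6 hours, during germ band elongation, and at 8-10 hours, during germ band retraction. Embryos were held in cycloheximide, which arrests elongating ribosomes, nuclei and debris were spun out, and the soluble extract was split into 12 sucrose gradient fractions from the light top to the heavy bottom. Each period had 2 untreated gradients of 8 arrays, with fractions 1-5 hybridised as a pool, 1 gradient with 15 mM EDTA, which takes ribosomes apart, hybridised as 4 pools, and 2 arrays of unfractionated RNA, for 66 Affymetrix arrays in all. The labels call the pairs biological replicates without naming the collections, so the p-values measure only the spread between these pairs.

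Polysomal occupancy is the percentage of a probe set's linear signal found in fractions 6-12. The 1-5 pool holds the average of its fractions and so entered 5 times. Equal signal in all 12 fractions gives an occupancy of 58.3%, and unspecific signal pulls values towards it. The Logit is the natural log of polysomal over non-polysomal signal, and equal signal gives a Logit of 0.34. The authors brought all arrays to a common distribution, so differences in total RNA between fractions are not in these values, and an occupancy is relative to the other mRNAs of its gradient. In whole embryos, fewer cells of a type and less RNA per cell cannot be told apart. Array medians lay between 4.55 and 5.13 log2 over 18952 probe sets. Tests were run with limma, a linear model that shares its estimate of the spread across probe sets, over the 10358 probe sets that were among the 50% of highest mean gradient signal in at least 1 period, and all 26 standard subunits but only 2 copies, Rpt3R and Rpn13R, were among them. The stage markers moved broadly with the labels. In unfractionated RNA the maternal bcd mRNA stood at 10.7, 6.81 and 6.51 log2 over the 3 periods, the segment gene en at 6.11, 10.7 and 10.5, and the glial gene repo at 4.30, 4.79 and 8.81. Of the other markers matched, osk read 12.4, 7.19 and 7.46 and twi 6.27, 10.4 and 7.61. The maternal gcl read 11.8, 8.91 and 10.0, and the germ band gene eve 5.95, 6.92 and 6.18. The later markers elav (5.30, 9.53 and 11.3) and btl (4.92, 7.09 and 7.67) had already risen at 4-6 hours. Of the 4 testis genes listed, dj and Mst87F read 2.71 to 3.25 log2 in every period, Mst98Ca read 5.33, 5.62 and 5.06, and the germline gene bam read 9.45 at 0-2 hours and 4.94 and 5.31 later.

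The 2 gradients of 0-2 hours differed for the core genes. All 12 read higher in gradient 2 than in gradient 1, by 6.90 to 11.1 percentage points with a median of 9.07, against a median of 2.73 for the 14 regulatory particle genes and 0.640 for all probe sets tested. The corresponding core medians were 3.17 percentage points at 4-6 hours and -1.62 at 8-10 hours. Logit results that rest on 0-2 hours are therefore also given without this gradient, as counts or as values.

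Core and regulatory particle mRNAs changed places between the earliest and the later periods. At 0-2 hours the median occupancy of the 12 core genes was 75.5% in gradient 1 and 83.9% in gradient 2, and that of the 14 regulatory particle genes was 64.3% and 66.0%. At 4-6 hours the core medians were 67.1% and 69.7%, and the regulatory medians 81.1% and 83.7%. At 8-10 hours the core stood at 68.0% and 66.8% and the regulatory particle at 77.5% and 80.8%. The core was thus the more polysomal set in both gradients of 0-2 hours and the less polysomal set in all 4 later gradients. The core median exceeded the regulatory median by 14.5 percentage points (SD 4.74, n = 2 gradients) at 0-2 hours, while the difference was -14.0 in both gradients at 4-6 hours and -11.8 (SD 3.24, n = 2) at 8-10 hours. Over all tested probe sets the median occupancy was 58.7%, 61.3% and 61.8% in the 3 periods, below both sets at every period. These summaries over chosen genes carry no test.

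The separation between the sets was incomplete. Of the 168 pairs of a core and a regulatory gene, the core gene was higher in 128 and 138 in the 2 gradients of 0-2 hours, in 12 and 15 at 4-6 hours and in 31 and 7 at 8-10 hours. The base had median occupancies of 66.2% ± 1.12, 82.1% ± 1.00 and 78.3% ± 3.42 (SD over 2 gradients) in the 3 periods, and the lid 64.0% ± 3.27, 82.5% ± 2.40 and 80.1% ± 1.72. Within the core, the alpha subunits had medians of 77.3%, 65.9% and 67.4% and the beta subunits 79.9%, 70.8% and 67.4%. The regulatory genes were spread far more widely than the core genes at 0-2 hours, where their means ran from 37.9% to 91.6%, against 68.6% to 89.2% for the core.

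**Figure D1:**
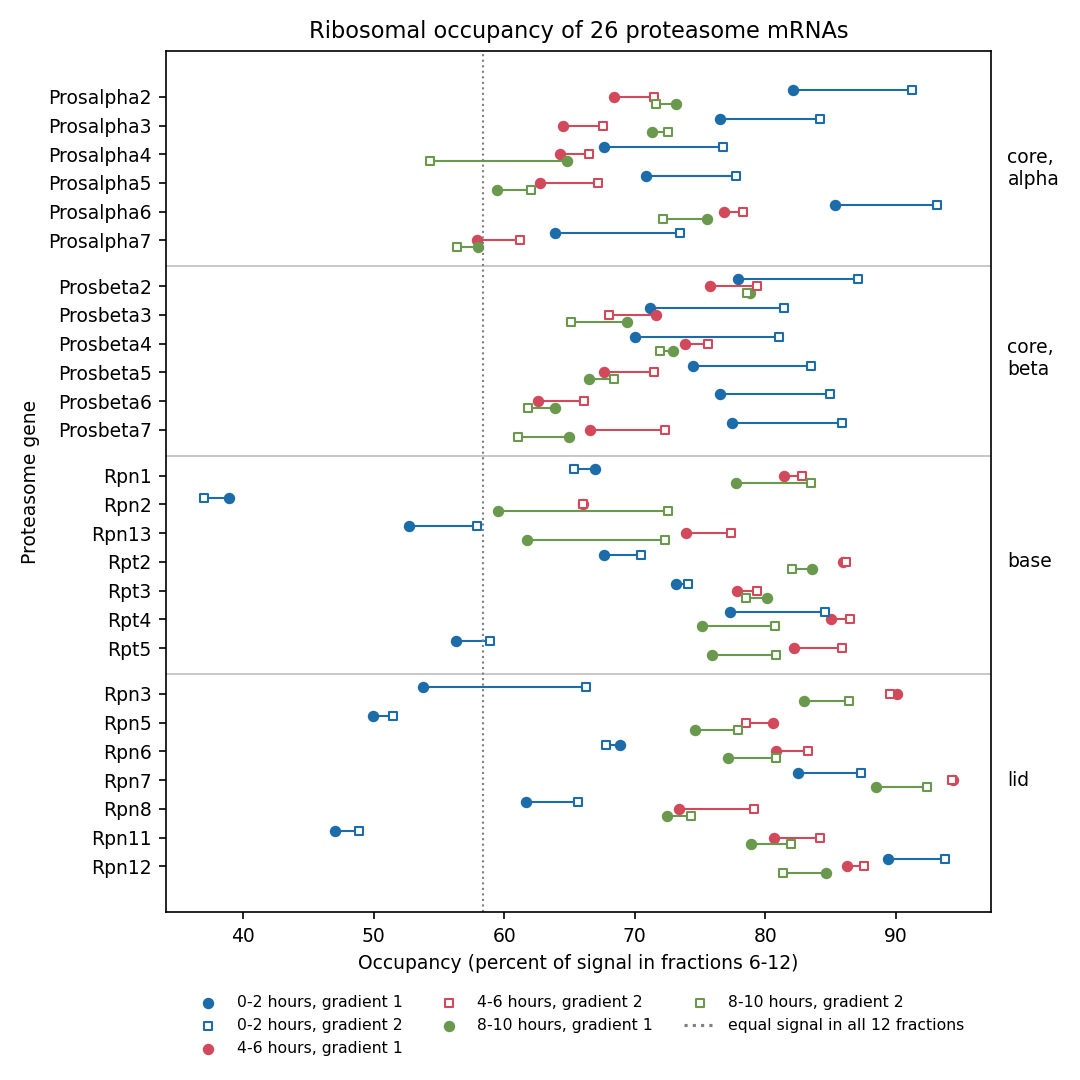
Polysomal occupancy (% of signal in fractions 6-12) of the 26 standard proteasome subunits, grouped as alpha, beta, base and lid, with filled circles for gradient 1 and open squares for gradient 2 at each of the 3 periods. The dotted line marks 58.3%, the value of equal signal in all fractions. Most core genes lie highest at 0-2 hours, and most base and lid genes lie highest at 4-6 hours, with Rpn12 highest at 0-2 hours.

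Among the alpha subunits, which form the gated outer rings, Prosalpha6 had the highest mean occupancy over the 3 periods and Prosalpha7 the lowest. Prosalpha6 was at 85.3% and 93.2% in the 2 gradients of 0-2 hours, at 76.8% and 78.3% at 4-6 hours and at 75.5% and 72.1% at 8-10 hours. Its 0-2 hour gradients lay above all 4 later ones. Prosalpha7 was at 63.9% and 73.4%, then 57.9% and 61.2%, then 58.0% and 56.4%, so that its later values were near the 58.3% of a flat profile. Prosalpha2 was at 82.1% and 91.2% at 0-2 hours, 68.4% and 71.5% at 4-6 hours and 73.2% and 71.6% at 8-10 hours. Prosalpha3 stood at 76.5% and 84.2%, then 64.5% and 67.6%, then 71.3% and 72.6%. Both were higher at 0-2 hours than at either later period, with no overlap of gradients. Prosalpha4, at 67.7% and 76.8%, then 64.3% and 66.5%, then 64.8% and 54.3%, and Prosalpha5, at 70.8% and 77.7%, then 62.8% and 67.2%, then 59.4% and 62.0%, had the same order.

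Among the beta subunits of the inner rings, Prosbeta2, which carries the trypsin-like site, had the highest mean occupancy and varied little, with 77.9% and 87.1% at 0-2 hours, then 75.8% and 79.3%, then 78.8% and 78.6%. The periods overlapped. Prosbeta6 had the lowest mean, with 76.5% and 85.0% at 0-2 hours against 62.6% and 66.1% at 4-6 hours and 63.9% and 61.8% at 8-10 hours. Prosbeta7 was at 77.4% and 85.9%, then 66.6% and 72.3%, then 64.9% and 61.0%. Both fell between 0-2 hours and the later periods without overlap. Prosbeta5, which carries the chymotrypsin-like site, was at 74.4% and 83.5%, then 67.6% and 71.5%, then 66.5% and 68.4%, also without overlap. Prosbeta4 showed overlapping periods, with 70.0% and 81.1%, then 73.8% and 75.6%, then 73.0% and 72.0%. Prosbeta3 was at 71.2% and 81.4%, then 71.6% and 68.0%, then 69.4% and 65.1%, and its 0-2 hour gradient 1 lay just below the 4-6 hour gradient 1.

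Among the base subunits, Rpt4 had the highest mean occupancy, with 77.3% and 84.6% at 0-2 hours, 85.1% and 86.5% at 4-6 hours and 75.1% and 80.8% at 8-10 hours. Rpn2, the scaffold that holds the receptor Rpn13, had the lowest, with 38.9% and 37.0%, then 66.0% and 66.1%, then 59.5% and 72.5%. At 0-2 hours Rpn2 and the lid subunit Rpn11 were the standard subunits whose mean lay below 50%. Rpn13, a ubiquitin receptor, rose from 52.7% and 57.9% to 74.0% and 77.4% and read 61.7% and 72.3% at 8-10 hours. The other scaffold, Rpn1, was at 66.9% and 65.4%, then 81.4% and 82.8%, then 77.8% and 83.5%. The ATPase Rpt5 moved from 56.3% and 58.9% to 82.2% and 85.9% and was at 75.9% and 80.9% at 8-10 hours. The ATPase Rpt2 was at 67.6% and 70.5%, then 85.9% and 86.2%, then 83.6% and 82.1%. For each of these 5 genes both 0-2 hour gradients lay below all 4 later ones. Rpt3, a further ATPase, was at 73.2% and 74.1%, then 77.8% and 79.4%, then 80.2% and 78.5%, in the same order over a smaller range.

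Among the lid subunits, Rpn7, a structural subunit, had the highest mean occupancy of all proteasome genes and Rpn5, also structural, had the lowest of the lid. Rpn7 was at 82.5% and 87.4% at 0-2 hours, 94.4% and 94.3% at 4-6 hours and 88.5% and 92.4% at 8-10 hours, and Rpn5 was at 49.9% and 51.5%, then 80.6% and 78.5%, then 74.6% and 77.9%. Rpn11, the metalloprotease that cuts ubiquitin chains off the substrate, went from 47.1% and 48.9% to 80.7% and 84.2% and then to 78.9% and 81.9%. Rpn3 went from 53.8% and 66.3% to 90.1% and 89.5% and then to 83.0% and 86.4%. In all 4 genes the 0-2 hour gradients were the 2 lowest. Rpn6 moved less, from 68.9% and 67.8% to 80.8% and 83.3% and then 77.2% and 80.8%. Rpn8, the partner of Rpn11, was at 61.6% and 65.7%, then 73.4% and 79.1%, then 72.5% and 74.3%. Rpn12, which in yeast is the last subunit to join the lid, went the other way, with 89.4% and 93.7% at 0-2 hours, 86.3% and 87.6% at 4-6 hours and 84.7% and 81.3% at 8-10 hours, and its 0-2 hour gradients were the 2 highest.

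Between 0-2 and 4-6 hours, 11 of the 14 regulatory particle genes rose in Logit and 6 of the 12 core genes fell, while 1 regulatory gene fell and no core gene rose (limma, Benjamini-Hochberg adjusted p under 0.05). Over all 10358 probe sets tested, 26.3% rose and 19.7% fell in this contrast. The median Logit change was 0.97 for the regulatory particle (0.92 for the base and 1.08 for the lid), -0.48 for the core and -0.01 for all probe sets. All 12 core estimates were below 0, and 13 of the 14 regulatory estimates were above it. The largest rises were those of Rpn3 with 1.76 (SE 0.20, limma adjusted p = 4.72e-06), Rpn11 with 1.63 (SE 0.18, adjusted p = 3.69e-06), Rpt5 with 1.36 (SE 0.19, adjusted p = 2.34e-05) and Rpn5 with 1.33 (SE 0.17, adjusted p = 1.68e-05). Rpn2, Rpn7, Rpt2, Rpn13, Rpn1, Rpn6 and Rpn8 rose by 0.61 to 1.16. The ATPases Rpt3 and Rpt4 had changes of 0.27 and 0.33 that did not pass.

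The largest core falls in the same contrast were those of Prosalpha2 with -1.09 (SE 0.23, limma adjusted p = 0.000872), Prosalpha6 with -0.95 (SE 0.23, adjusted p = 0.00296), Prosbeta6 with -0.87 (SE 0.20, adjusted p = 0.00192) and Prosalpha3 with -0.76 (SE 0.19, adjusted p = 0.00387). Prosbeta7 fell by 0.70 and Prosbeta5 by 0.52, the latter close to the threshold (limma adjusted p = 0.0441). Rpn12, the regulatory gene that fell, had a change of -0.52 (SE 0.20, limma adjusted p = 0.0462). The calls of Prosbeta5 and Rpn12 were lost when no filter on signal was used and when the 10th percentile of each array was subtracted. The 6 core genes that did not pass had changes of -0.45 to -0.07, the smallest being that of Prosbeta4. Without gradient 2 of 0-2 hours, the same 11 regulatory genes rose, 2 core genes fell (Prosalpha2 and Prosbeta6) and Rpn12 did not pass. In that setting the changes of the genes whose calls were lost were -0.52 for Prosalpha3 and for Prosalpha6, -0.41 for Prosbeta7 and -0.24 for Prosbeta5 and for Rpn12. Without gradient 1 of 0-2 hours, 10 core genes fell and 10 regulatory genes rose, and without gradient 1 of 4-6 hours 3 core genes fell.

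No proteasome gene passed between 4-6 and 8-10 hours, where 3.48% of all probe sets rose and 2.78% fell in Logit. At an unadjusted p under 0.05 limma named 4 of the 28 tested genes, all lower at 8-10 hours. The core median change was -0.11 and the regulatory median change -0.22, and the largest estimates were -0.55 for Rpn7 and -0.53 for Rpt4.

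Between 0-2 and 8-10 hours, a contrast that shares its samples with those above, 10 of the 14 regulatory genes rose and 1 fell, and 9 of the 12 core genes fell, against 28.7% of all probe sets that rose and 20.8% that fell. The core falls took in all 6 alpha subunits, led by Prosalpha6 with -1.15 (SE 0.23, limma adjusted p = 0.000618) and Prosalpha2 with -0.97 (SE 0.23, adjusted p = 0.00197), and the beta subunits Prosbeta7 with -0.99, Prosbeta6 with -0.93 and Prosbeta5 with -0.62. Prosbeta2, Prosbeta3 and Prosbeta4 did not pass. With the 10th percentile of each array subtracted the calls of Prosalpha3, Prosalpha4 and Prosalpha7 were lost, and with no filter on signal those of Prosalpha3 and Prosalpha4. With fractions 6 and 7 counted as non-polysomal, Prosalpha3, Prosalpha7 and Prosbeta5 lost theirs, and Prosalpha3 also with the replicate number as a block. The 4 largest regulatory rises were those of Rpn11 with 1.50 (SE 0.18, limma adjusted p = 6.67e-06), Rpn3 with 1.30 (SE 0.20, adjusted p = 5.97e-05), Rpn2 with 1.17 (SE 0.20, adjusted p = 0.000155) and Rpn5 with 1.14 (SE 0.17, adjusted p = 5.96e-05). Rpt5, Rpt2, Rpn1, Rpn6, Rpn7 and Rpn13 rose by 0.51 to 0.99. The calls of Rpn7 and Rpn13 were lost with no filter on signal and with the 10th percentile of each array subtracted. That of Rpn13 was also lost with fractions 6 and 7 counted as non-polysomal. Rpn12 fell by 0.83 (SE 0.20, limma adjusted p = 0.00294). Without gradient 2 of 0-2 hours, 4 core genes fell (Prosalpha2, Prosalpha6, Prosbeta6 and Prosbeta7) and 8 regulatory genes rose. Rpn12 then had a change of -0.54 and did not pass, nor did Prosalpha5 with -0.45, Rpn6 with 0.53 and Rpn13 with 0.61. Prosalpha3, Prosalpha4, Prosalpha7 and Prosbeta5, which also did not pass, had changes of -0.24, -0.35, -0.28 and -0.34. Without gradient 2 of 8-10 hours the rises of Rpn13 and Rpn7 were 0.27 and 0.30 and did not pass. Their rises without gradient 1 of 0-2 hours were 0.40 and 0.33 and did not pass either.

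The study's cut-offs for preferential association were also applied to the Logit of the mean profile of each period, above 1.5 with an SD over the 8 log2 values of the profile above 0.5 for the translated class, and below -0.15 with an SD below 1 for the untranslated class. A Logit of 1.5 is an occupancy of 81.8%. The paper removed mRNAs by an EDTA filter before it formed its classes. That filter was not applied here, so the classes are not the same lists. At 0-2 hours the translated class, which held 10.5% of all probe sets, took in 4 core genes, Prosalpha2, Prosalpha6, Prosbeta2 and Prosbeta7, and 2 regulatory genes, Rpn12 and Rpn7. The untranslated class held 17.0% of probe sets and 1 proteasome gene, Rpn2. In gradient 1 of 0-2 hours alone the translated class took in Prosalpha2, Prosalpha6, Rpn12 and Rpn7, and the untranslated class again Rpn2. At 4-6 hours the translated class held 5.69% of probe sets, no core gene and 9 regulatory genes, of which Rpn1, Rpn3, Rpn6, Rpn11, Rpt2, Rpt4 and Rpt5 had not been in it at 0-2 hours. At 8-10 hours it held 5.01% of probe sets and Rpn3, Rpn7, Rpn12 and Rpt2. The untranslated class held 6.46% and 6.10% of probe sets at the later periods and no proteasome gene. The paper itself reports the proteasome regulatory particle as an over-represented term among its preferentially polysomal mRNAs of 4-6 hours.

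The sets also differed in where on the gradient their polysomal signal lay. The core mRNAs peaked in fractions 9-11 in every gradient, and the regulatory mRNAs in fractions 10-12. At 0-2 hours the peak of 8 and 11 of the 12 core genes was in fraction 10 in gradients 1 and 2, and that of the others in fraction 9. At 4-6 hours 7 core genes peaked in fraction 10 and 5 in fraction 11 in gradient 1, but 6 in fraction 9 and 6 in fraction 10 in gradient 2. At 8-10 hours all 12 peaked in fraction 10 in gradient 1 and 9 of them in fraction 9 in gradient 2. The peak thus differed by about 1 fraction between the gradients of each later period, and little between those of 0-2 hours.

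In the heaviest fractions, 11 and 12, the core kept a median of 22.7% of its signal at 0-2 hours, 16.7% at 4-6 hours and 14.6% at 8-10 hours. The base had 32.4%, 44.1% and 42.6% there and the lid 34.6%, 44.2% and 37.0%. In fractions 8-10 the core had 44.2%, 35.6% and 41.0%, the base 23.0%, 24.6% and 27.5% and the lid 20.7%, 34.4% and 35.0%. In gradient 2 of the later periods the lid lay above the core there, with 39.6% against 38.4% at 4-6 hours and 43.8% against 41.4% at 8-10 hours. The lid value for fractions 11 and 12 at 8-10 hours rested on gradients of 45.3% and 28.7% and so had a wide spread. Coding lengths, on which the number of ribosomes per mRNA depends, were not measured here.

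**Figure D2:**
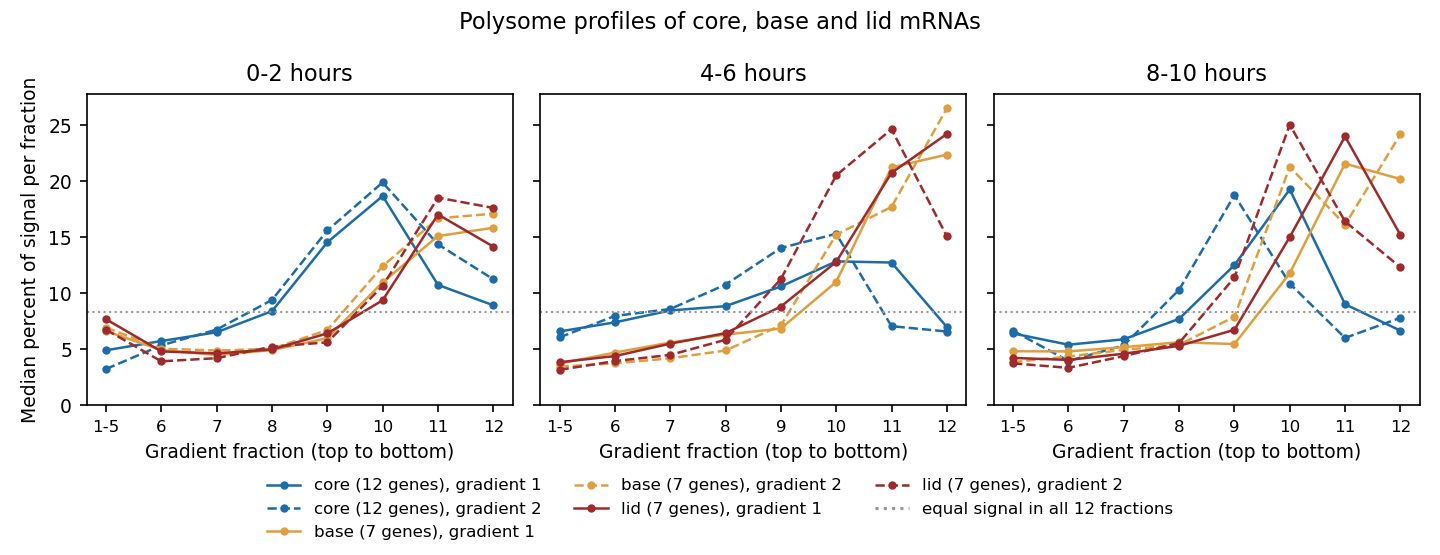
Median percentage of signal per fraction (y axis) along the gradient (x axis, pool of fractions 1-5 shown per single fraction, then fractions 6-12) for the core, base and lid genes at each period, with gradient 1 solid and gradient 2 dashed. The dotted line marks equal signal in all 12 fractions. The core curves peak in lighter fractions than the base and lid curves.

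The mean polysomal fraction, the signal-weighted mean fraction number within fractions 6-12, put numbers on this. Its median was 9.48, 9.04 and 9.24 for the core over the 3 periods, 10.08, 10.17 and 10.30 for the base, and 10.08, 10.15 and 10.05 for the lid. Over all tested probe sets it was 9.02, 9.03 and 9.05. Between 0-2 and 4-6 hours 8 of the 12 core genes fell, while 8.46% of all probe sets fell and 13.9% rose. Prosalpha2 fell the most, from 9.39 and 9.52 to 8.92 and 8.77, a change of -0.61 fractions (SE 0.13, limma adjusted p = 0.00433), followed by Prosalpha4 with -0.51, Prosbeta5 with -0.49 and Prosalpha6 and Prosbeta3 with -0.42 each. Prosalpha3, Prosbeta6 and Prosalpha5 fell by 0.39, 0.38 and 0.36. Rpn2 was the regulatory gene that passed, rising from 9.44 and 9.40 to 9.87 and 10.30, a change of 0.66 (SE 0.16, limma adjusted p = 0.00887). No proteasome gene passed without gradient 2 of 0-2 hours, 2 passed without gradient 1 of 0-2 hours, 2 without gradient 2 of 4-6 hours and 10 without gradient 1 of 4-6 hours. The changes themselves moved by at most 1.52 times when 1 gradient was left out, the most for Prosbeta3, and that of Prosalpha2 lay between -0.68 and -0.53. With the 10th percentile of each array subtracted, 3 core genes fell, Prosalpha2, Prosalpha4 and Prosbeta5, and Rpn2 rose.

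Between 4-6 and 8-10 hours no standard subunit passed for the mean polysomal fraction, while 4.94% of all probe sets rose and 2.72% fell. All 12 core estimates were above 0, with a median of 0.21. Between 0-2 and 8-10 hours Rpn2 rose by 0.58 and Rpn11 by 0.38, no core gene passed, and 18.5% of all probe sets rose and 13.0% fell. When either 0-2 hour gradient was left out neither passed, while the changes with 1 gradient left out lay between 0.42 and 0.74 for Rpn2 and between 0.31 and 0.45 for Rpn11.

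In unfractionated RNA the core mRNAs fell over development, 5 of the alpha genes between 0-2 and 4-6 hours and all 6 beta genes after it, and the regulatory mRNAs were mixed. Between 0-2 and 4-6 hours 5 core genes, all alpha subunits, fell and 1 beta subunit rose, and 6 regulatory genes fell and 2 rose, against 25.9% of all probe sets that rose and 24.6% that fell. Between 4-6 and 8-10 hours 10 core genes fell, among them all 6 beta subunits, and 2 regulatory genes fell, against 14.1% of all probe sets that fell and 16.2% that rose. Between 0-2 and 8-10 hours 11 core genes and 8 regulatory genes fell and no standard subunit rose, against 27.1% of all probe sets that fell and 27.2% that rose. The median changes in log2 abundance in these 3 contrasts were -0.38, -0.95 and -1.29 for the core, -0.44, -0.24 and -0.63 for the regulatory particle and 0.10, -0.05 and -0.05 for all probe sets.

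The alpha genes with the largest falls were Prosalpha4, Prosalpha3 and Prosalpha5. Prosalpha4 read 11.30 and 11.73 log2 on the 2 arrays of 0-2 hours, 9.55 and 9.93 at 4-6 hours and 9.15 and 9.21 at 8-10 hours. Prosalpha3 read 11.56 and 12.01, then 10.24 and 10.45, then 10.04 and 10.18, and Prosalpha5 read 11.85 and 12.51, then 11.05 and 11.11, then 10.08 and 10.25. In none of the 3 did the 0-2 hour arrays overlap with later ones. Their log2 changes to 4-6 hours were -1.78 (SE 0.21, limma adjusted p = 0.00159) for Prosalpha4, -1.44 (SE 0.20, adjusted p = 0.00256) for Prosalpha3 and -1.10 (SE 0.24, adjusted p = 0.0131) for Prosalpha5. To 8-10 hours they were -2.34 (SE 0.21, limma adjusted p = 0.000548), -1.67 and -2.02. Prosalpha7 and Prosalpha2 fell by 0.90 and 0.58 to 4-6 hours, and Prosalpha6 was the alpha gene that did not pass there.

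No beta gene fell between 0-2 and 4-6 hours, and all 6 fell after that. Prosbeta6 read 11.57 and 11.16 log2 at 0-2 hours, 11.56 and 11.66 at 4-6 hours and 10.06 and 10.21 at 8-10 hours. Prosbeta4 read 11.84 and 11.61, then 11.80 and 11.80, then 10.44 and 10.55, and Prosbeta7 read 11.37 and 11.43, then 11.80 and 11.86, then 10.47 and 10.61. For all 3 the 8-10 hour arrays lay below every earlier one. From 4-6 to 8-10 hours the changes were -1.48 (SE 0.19, limma adjusted p = 0.00431) for Prosbeta6, -1.30 (SE 0.15, adjusted p = 0.00331) for Prosbeta4 and -1.28 (SE 0.13, adjusted p = 0.00274) for Prosbeta7. Prosbeta7 had risen by 0.43 between 0-2 and 4-6 hours (limma adjusted p = 0.0449), a call lost with the replicate number as a block (adjusted p = 0.0585) and with each array's median subtracted (adjusted p = 0.129). Prosbeta2 was the core gene that did not pass between 0-2 and 8-10 hours, with a change of -0.38.

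Among the regulatory genes, Rpt4 and Rpn12 rose and fell again. Rpt4 read 10.55 and 9.92 log2 at 0-2 hours, 11.67 and 11.76 at 4-6 hours and 10.32 and 10.45 at 8-10 hours, and Rpn12 read 10.11 and 9.70, then 11.24 and 11.32, then 10.10 and 10.10. The 4-6 hour arrays of both lay above all others, with changes of 1.48 (SE 0.24, limma adjusted p = 0.00411) and 1.38 (SE 0.18, adjusted p = 0.00200) to 4-6 hours and of -1.33 and -1.18 from there to 8-10 hours. The receptor Rpn13 read 11.30 and 11.78, then 10.28 and 10.52, then 9.96 and 10.10, and the deubiquitinase Rpn11 read 11.67 and 12.14, then 10.78 and 10.91, then 10.48 and 10.49. Both were highest at 0-2 hours on both arrays, and between 0-2 and 4-6 hours they fell by 1.14 and 1.06. Rpn8 fell by 0.94, Rpn3 by 0.75, Rpn7 by 0.71 and Rpt3 by 0.62 in that contrast. Between 0-2 and 8-10 hours the 3 largest regulatory falls were those of Rpn13 with -1.51, Rpn11 with -1.42 and Rpn3 with -0.90. The abundance counts, but less the changes, varied with the arrays used. Between 4-6 and 8-10 hours fewer genes passed than the main 14, copies included, when any 1 array of these periods was left out. The same held between 0-2 and 4-6 hours, where the main count was 15, without 1 of the 4-6 hour arrays. Between 0-2 and 8-10 hours the regulatory falls went from 8 to 3 without either 8-10 hour array, while 11 core genes fell. The change of Rpn5 in that contrast, -0.68, lay between -0.95 and -0.42 with 1 array left out, and no other abundance change of a called gene moved by over 1.5 times.

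Set side by side, the changes in polysomal association and abundance gave different pictures for the 2 sets. Of the 11 regulatory genes that rose in Logit between 0-2 and 4-6 hours, none rose in abundance, and 5 of them, Rpn13, Rpn11, Rpn8, Rpn3 and Rpn7, fell in it. Rpn12 was the reverse, with a fall in Logit beside its rise in abundance, and Rpt4 rose in abundance with no call in Logit. Of the 6 core genes that fell in Logit, Prosalpha2 and Prosalpha3 fell in abundance too, Prosbeta7 rose, and Prosalpha6, Prosbeta5 and Prosbeta6 did not pass. Over all probe sets 25.9% rose and 24.6% fell in abundance between 0-2 and 4-6 hours. The shares among all probe sets called in Logit were not computed here. The paper reports a general tendency for occupancy to increase between these periods where mRNA levels dropped, so the counts above need not be particular to the proteasome. The gradients and the unfractionated arrays are different arrays, and no test of one change against the other was run.

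**Figure D3:**
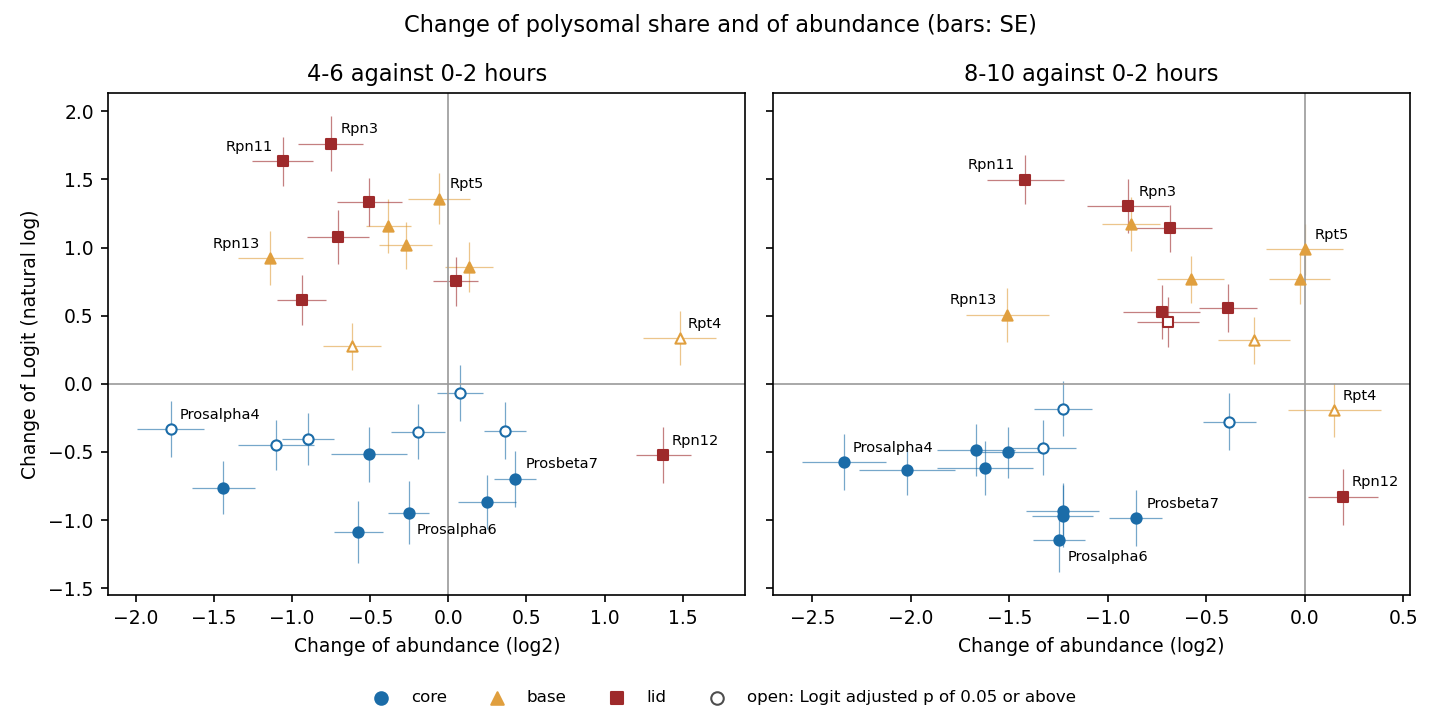
Change in Logit (y axis) against change in log2 abundance (x axis) for the standard subunits, from 0-2 to 4-6 hours and from 0-2 to 8-10 hours, with standard errors as bars and open symbols where the Logit change did not pass. Core genes lie below 0 on the Logit axis and nearly all regulatory genes above it, and most of both lie below 0 on the abundance axis, with Rpt4 and Rpn12 to the right at 4-6 hours.

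The EDTA gradients asked whether the heavy signal was held there by ribosomes. The untreated arrays of fractions 1-5 enter both the EDTA difference and the Logit, and a low untreated pool raises both. The measures are therefore not independent. A shift of all mRNAs together would not show, since all arrays were brought to a common distribution. Each period had 1 EDTA array of fractions 1-5, so it was assumed to vary like the untreated arrays. The EDTA arm has no spread of its own, and the p-values below describe how far that 1 array lay from the 2 untreated ones, not a replicated effect. With EDTA, fractions 10-12 held medians of 26.1%, 23.6% and 27.1% of the core signal and 25.9%, 25.0% and 28.0% of the regulatory signal over the 3 periods, where each of the 4 pools counts once and equal signal gives 25%. Untreated, the same pool held 40.5%, 28.6% and 28.8% for the core and 46.5%, 57.0% and 56.6% for the regulatory particle. The untreated core thus stood only a little above equal signal in this pool at 4-6 and 8-10 hours. In fractions 8-9 the core medians with EDTA were 23.8%, 25.3% and 24.5% over the 3 periods. Untreated, every core gene but Prosalpha7 held more there than with EDTA in each period. Without Prosalpha7, the untreated shares ran from 29.1% to 35.3% at 4-6 hours and from 29.3% to 42.2% at 8-10 hours. Prosalpha7 had 25.7% untreated and 27.0% with EDTA at 4-6 hours. The lighter EDTA pools were less even at 8-10 hours, where fractions 1-5 held a median of 32.8% of the core signal and fractions 6-7 held 15.0%, against 27.3% and 18.8% for the regulatory particle.

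At 0-2 hours 7 genes rose in fractions 1-5 with EDTA, 2 of the core and 5 of the regulatory particle, against 6.33% of all probe sets that rose and 2.36% that fell. At 4-6 hours it was 1 core gene and 11 regulatory genes against 12.9% and 3.49% of all probe sets. At 8-10 hours it was again 1 core gene and 11 regulatory genes, the same 11, against 12.6% and 3.52%. No standard subunit fell. The median log2 differences were 0.68, 0.76 and 0.42 for the core, 0.54, 1.97 and 1.66 for the regulatory particle and -0.03, 0.06 and 0.06 for all probe sets.

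Rpn1, Rpt3, Rpt4, Rpn7 and Rpn12 passed in all 3 periods. With the replicate number as a block none of them did. Rpn1, Rpt3, Rpt4 and Rpn7 then lost the call of 0-2 hours, with differences of 1.08, 1.75, 1.53 and 1.03. Rpn12 lost that of 8-10 hours, with a difference of 1.93. Rpn12 stood at 8.57 and 7.43 log2 in the untreated pools of 0-2 hours and at 11.07 with EDTA, a difference of 3.07 (SE 0.44, limma adjusted p = 0.00472), and at 4-6 hours at 8.64 and 8.90 against 11.38. Rpn7 stood at 6.75 and 6.67 against 9.63 at 4-6 hours, a difference of 2.92 (SE 0.29, limma adjusted p = 0.00280). For both genes the EDTA array lay above both untreated arrays in every period. Rpt4 differed by 1.63, 2.54 and 1.72, Rpt3 by 1.78, 1.92 and 1.99 and Rpn1 by 1.10, 2.17 and 1.97. Of the core, Prosalpha6 passed at 0-2 hours, with 10.18 and 9.24 against 11.73 (difference 2.02, SE 0.37, limma adjusted p = 0.0132), and at 4-6 hours with 1.46, Prosalpha2 passed at 0-2 hours with 1.48 and Prosbeta2 at 8-10 hours with 1.27. Rpn2, Rpn8 and Rpn13 were the regulatory genes that passed in no period. Rpn2 stood at 11.76 and 11.85 log2 untreated and at 11.13 with EDTA at 0-2 hours, a difference of -0.68 that did not pass (limma adjusted p = 0.193).

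The difference in the EDTA effect between periods passed for no proteasome gene in any of the 3 contrasts, and for 0, 2 and 7 of all probe sets. At an unadjusted p under 0.05 it was 10, 0 and 9 of the 28 tested genes. The calls at 0-2 hours were the least stable, since without gradient 2 of that period Rpn12 alone passed.

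**Figure D4:**
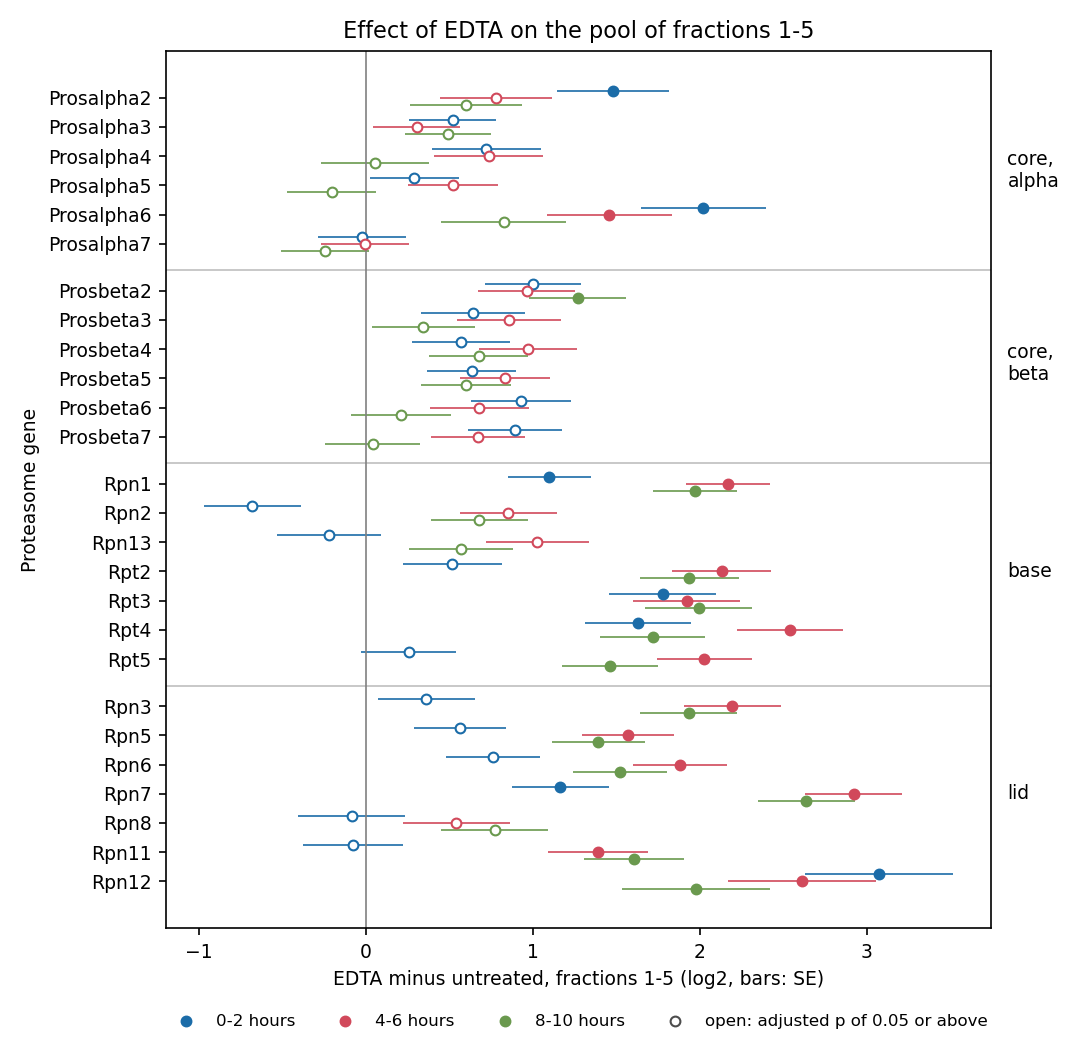
Log2 signal in fractions 1-5 with EDTA minus the untreated mean (x axis) for each standard subunit (y axis) at each period, with standard errors as bars and open symbols where limma's adjusted p was 0.05 or above. Most base and lid genes lie near or above 1.4 at 4-6 hours, and most core genes lie below 1 in every period.

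The 14 copies stood apart from the standard subunits. Their mean log2 values in unfractionated RNA were 3.42 to 5.73, against array medians of 4.55 to 5.13 in the series, and their median occupancies were 57.4%, 58.7% and 58.4%, close to the 58.3% of a flat profile. Several of them are known from the male germline of the adult, and 12 did not pass the filter on signal. Rpt3R was at 75.2% and 82.0% occupancy at 0-2 hours, 71.5% and 77.5% at 4-6 hours and 65.9% and 64.4% at 8-10 hours. Its Logit was lower by 0.69 at 8-10 hours than at 0-2 hours. With the 10th percentile of each array subtracted that change was -0.51, and without gradient 2 of 0-2 hours it was -0.48. Its abundance read 4.95 and 4.50 log2, then 5.55 and 5.91, then 4.32 and 4.17. Since Rpt3R passed the filter through 0-2 and 4-6 hours but not 8-10 hours, no test of its Logit or abundance is given.

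Rpn13R passed the filter through 8-10 hours alone, the period where its signal was highest, so its values are given without a test. It was at 59.1% and 57.5%, then 59.0% and 59.0%, then 73.8% and 59.2% occupancy, and at 8-10 hours gradient 1 lay far above gradient 2. Its mean polysomal fraction was 8.99 and 8.67 at 0-2 hours, 8.44 and 8.25 at 4-6 hours and 6.92 and 7.87 at 8-10 hours, on abundances of 3.32 and 3.51, then 3.61 and 3.51, then 4.25 and 4.05 log2.

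Genes that work with the proteasome were followed beside the subunits. Of 9 associated and assembly proteins tested, 3 rose in Logit between 0-2 and 4-6 hours and none fell, a share not far from the 26.3% of all probe sets that rose. Usp14, a deubiquitinase bound to the base, went from a mean occupancy of 30.4% to 75.9% and 73.6%, a Logit change of 1.98 (SE 0.18, limma adjusted p = 9.07e-07). PI31, a regulator that binds the core, went from 47.4% to 69.2% and 65.1%, and rngo, a ubiquitin receptor related to yeast Ddi1, from 59.0% to 75.8% and 72.5%. The other deubiquitinase of the particle, Uch-L5, at 86.3%, 81.9% and 73.8%, and the shuttle receptor Rad23, at 87.3%, 82.3% and 72.5%, passed as falls between 0-2 and 8-10 hours. In that contrast 3 of the 9 rose and 2 fell, near the 28.7% of all probe sets that rose and the 20.8% that fell. Pomp, which helps the core assemble, was at 81.5%, 78.4% and 80.0% and did not pass.

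The segregase, which pulls ubiquitylated proteins out of complexes for the proteasome, had 3 of 4 genes that rose in Logit between 0-2 and 4-6 hours, again beside 26.3% of all probe sets. Its adaptors Npl4, from 26.7% to 62.1%, Ufd1-like, from 55.0% to 83.8%, and p47, from 51.3% to 68.2%, rose, while the ATPase TER94 was at 74.2% and 74.4%. Both ubiquitin genes tested fell, as did 19.7% of all probe sets, Ubi-p63E from 82.4% to 63.6% and Ubi-p5E from 75.9% to 61.3%. The transcription factors cnc and maf-S and the cnc inhibitor Keap1 had no call in Logit in this contrast, and Keap1 and maf-S rose in abundance by 2.57 and 1.41. The COP9 signalosome, whose subunits are related to those of the lid, had 8 genes tested, of which CSN6 rose in Logit and CSN7 and CSN8 fell between 0-2 and 4-6 hours, CSN8 from 89.4% to 66.5%. Without gradient 2 of 0-2 hours CSN7 had a change of -0.50 and did not pass (limma adjusted p = 0.0802), and the other calls given here for associated, segregase, ubiquitin and COP9 genes were kept. In abundance 7 of the 8 COP9 genes rose between 0-2 and 4-6 hours, against 25.9% of all probe sets, and 7 fell between 4-6 and 8-10 hours, against 14.1%.

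Some values depend on how the array reads a gene. The probe sets of Prosalpha5, Prosalpha7, Prosbeta5, Prosbeta7, Rpn6 and Rpn13 and of the copies Rpn12R and Rpt3R carry a suffix for designs that may match more than 1 transcript, so that isoforms or related mRNAs cannot be told apart in them.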

How the data were processed

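RNA of sucrose gradient fractions and of whole embryos was hybridised to Affymetrix Drosophila Genome 2.0 arrays. The authors deposited 1 log2 value per probe set and array, made with RMA, which corrects background, brings arrays to a common distribution and summarises probes. Linear signal (2 to the power of the log2 value) gave occupancy, Logit and mean polysomal fraction per gradient. Each was fitted with limma 3.58.1 (R 4.3.3), with period as the factor: 6 gradients, 6 unfractionated arrays, or 9 arrays of fractions 1-5 for EDTA. Two-sided p-values were adjusted by Benjamini-Hochberg over 10358 probe sets, with a threshold of 0.05, after removal of 183 controls. Exact permutation of 2 against 2 cannot go below p = 0.333, so none is given. The fit was also run on simulated data with independent noise per probe set, which holds no shift shared by the genes of a gradient.

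Values per sample are given for the genes of highest and lowest occupancy per subcomplex, the 4 largest Logit and 3 largest abundance changes each way per contrast, and genes passing for EDTA in the fewest or most periods. Members and lists were chosen with earlier results of these data known. Array precision is limited by 2 arrays per group. Same-numbered unfractionated arrays deviated together mainly between 4-6 and 8-10 hours, with a correlation of 0.58. The correlations of 0-2 hours with 4-6 and 8-10 hours were 0.15 and 0.25. The replicate numbers come from the labels. Alternatives were the weight of the pool, the border of the polysomal fractions, subtraction of a background percentile, no filter, array centring, a replicate block, each replicate left out, and Rpn13 left out. Gene names follow the array annotation and RefSeq for the Release 6 assembly. No sequences were used here.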

Additional observations from a re-analysis of the deposited data

How the results depend on the processing

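No change of a called proteasome gene and no difference between core and regulatory particle changed direction under any alternative. The medians over all probe sets lie near 0 and did change sign, as for abundance between 0-2 and 4-6 hours, which went from 0.10 to -0.05 with each array's median subtracted. The core-minus-regulatory difference in median occupancy was 4.78 percentage points at 0-2 hours, then -4.37 and -3.83, with the pool of fractions 1-5 counted once, which moves every Logit by the same amount and left all Logit calls as they were. At 4-6 hours it was -22.4 with fractions 6 and 7 as non-polysomal, -14.3 with the 10th percentile of each array subtracted and -14.4 with Rpn13 left out (Rpn10 was not analysed here), beside 2 gradients that differed by far less than any of these shifts. With each replicate left out in turn it ran from 11.2 to 17.9 at 0-2 hours, was -14.0 throughout at 4-6 hours and ran from -14.1 to -9.49 at 8-10 hours.

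Counts of proteasome genes called, copies that passed the filter included, are given for 4-6 against 0-2, 8-10 against 4-6 and 8-10 against 0-2 hours in this order. The copies Rpt3R and Rpn13R passed the filter through some periods only, so their calls in these counts are no test of a change. For the mean polysomal fraction, both calls of the second contrast and 2 of the 4 of the third were theirs. The counts for that fraction were 9, 2 and 4, and 5, 0 and 2 with the 10th percentile subtracted. With each gradient's median subtracted, an alternative chosen after seeing the data that moves the median Logit of all probe sets from -0.01 to -0.12 for 4-6 against 0-2 hours, the second of these was 1. With each replicate left out, Logit counts of 18, 0 and 21 ran over 13 to 21, stayed at 0, and ran over 12 to 21, those of the mean polysomal fraction over 0 to 10, 1 to 2 and 1 to 6, those of abundance (15, 14 and 20) over 6 to 16, 5 to 18 and 14 to 22, and those of EDTA (7, 13 and 13 by period) over 1 to 7, 10 to 17 and 11 to 13. The EDTA difference between periods, 0, was 0 to 1. The cause of these shifts was not tested, beside the smaller number of arrays in each such fit. The alternatives for that difference, and the classes and associated genes without gradient 2 of 0-2 hours, were also chosen after seeing the data.

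With the replicate number as a block, the EDTA count of 0-2 hours was 1 in place of 7, those of the later periods 11 and 9, those of Logit 18, 0 and 20, and those of abundance 14, 13 and 20. In the gradients same-numbered samples did not deviate together for Logit, with correlations of -0.04, -0.29 and -0.09, so the block only shares a number there. For the mean polysomal fraction the correlations were -0.22, -0.17 and 0.35, the last between 4-6 and 8-10 hours. The counts for that fraction were 10, 3 and 6 with the block, under which Prosalpha5 lost its call between 0-2 and 4-6 hours (limma adjusted p = 0.0577), and the abundance block changed no call other than those of Prosbeta7 and Rpn13R. The number of arrays limits the precision, the dim copies lie near a flat profile, and only 1 EDTA gradient per period was measured.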
